A study of Mus musculus with 8 samples.

Results

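Integrins are the transmembrane receptors through which cells hold on to matrix and to each other, and laminins are the trimeric glycoproteins that the basement membrane around each muscle fibre is built on. The 38 protein-coding genes described here, 27 integrin chains and 11 laminin chains, were taken by their gene symbols from the 22880 gene identifiers counted in each mouse. The tissue was soleus, a calf muscle rich in slow fibres that works in posture, and RNA sequencing covered 4 control male mice (Dnm2 +/+) and 4 male mice heterozygous for a germline point mutation of dynamin 2 (Dnm2 +/K562E). All 8 mice were 2 months old and on the C57BL/6 background (C57bl/6 J in the study's methods), each library came from 1 animal, and the mutant allele also carries a loxP site left in an intron by the targeting. No treatment is named in the labels. The description of Dnm2 +/K562E mouse 1 spells the mutation differently from its title and genotype label, which gave its group, and without that mouse the same 12 of the genes described below were called higher and the same 1 lower. The question was how the transcripts of matrix receptors and basement membrane chains differed in muscle that carried 1 mutant dynamin 2 allele. Each mouse gave between 33407430 and 48832814 counts, of which the 38 genes took 0.152% to 0.176% in controls and 0.237% to 0.274% in Dnm2 +/K562E mice. Transcripts of the muscle fibre markers Acta1, Ckm, Myh7, Myh2, Tnnt1 and Ttn were abundant in all 8 libraries, summing to 54650 to 60122 normalized CPM (counts scaled to an equal effective library size) in controls and 34486 to 39996 in Dnm2 +/K562E mice, and the slow myosin gene Myh7 was among them. Dnm2 itself was counted at 68.8, 68.5, 59.2 and 68.7 normalized CPM in control mice 1 to 4 and at 74.2, 76.1, 73.1 and 70.2 in Dnm2 +/K562E mice 1 to 4 (log2 fold change 0.15 ± 0.065, edgeR adjusted p = 0.0910). Gene counts add both alleles, so this level does not check the genotype.

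An integrin receptor is a pair of 1 alpha and 1 beta chain, and the pair decides the ligand. In adult muscle fibres the Itga7 and Itgb1 chains form the main laminin receptor, which links the cytoskeleton to the laminin trimer of Lama2, Lamb1 or Lamb2, and Lamc1. Loss of LAMA2 causes a congenital muscular dystrophy and loss of ITGA7 a congenital myopathy. Blood cells use a separate beta chain, Itgb2, with the alpha chains Itgal, Itgam, Itgax and Itgad. Fibroblasts and other connective tissue cells hold fibrillar collagen mainly through Itga1, Itga2, Itga10 and Itga11. The gene counts do not separate the splice forms by which Itga7 and Itgb1 of muscle are also known.

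Of the 38 genes, 35 had enough counts to be tested, and 12 of these were called higher and 1 lower in Dnm2 +/K562E soleus, a call requiring both an adjusted p below 0.05 and a difference of 0.58 or more on the log2 scale (edgeR's quasi-likelihood test, Benjamini-Hochberg adjustment over 14001 genes). Over all 14001 genes tested the same rule called 12.9% higher and 7.85% lower, or 20.7% in all. On adjusted p alone, 19 of the 35 were higher and 5 lower, against 22.2% and 21.7% of all genes (43.8% in either direction). The median log2 fold change of the 35 was 0.50, and that of all genes tested was 0.0074. The integrins held most of the higher calls. Among the 25 integrins tested, 11 were called higher and 0 lower, their median was 0.56, and without the fold threshold 15 were higher and 2 lower. Among the 10 laminin chains tested, Lama2 was called higher and Lamb3 lower, with a median of 0.074, and without the fold threshold 4 were higher and 3 lower. In 19 of the 35 genes all 4 Dnm2 +/K562E mice lay above all 4 controls and in 3 they lay below, where the shares over all genes tested were 20.6% and 20.5%, or 41.2% in all. The 12 genes called higher were called in each of the other settings tried, including leaving out any mouse. Scaling by library size alone moved the median of all genes to 0.22 and the number of members called to 19 higher and 0 lower.

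**Figure D1:**
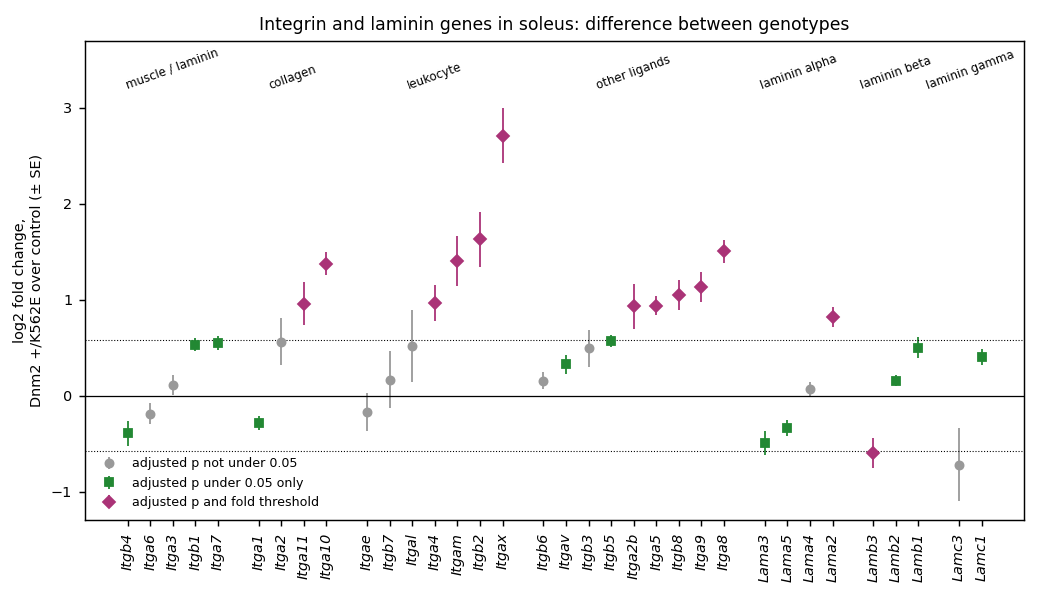
Log2 fold change (Dnm2 +/K562E over control, y axis) with its standard error for 34 of the genes tested, grouped by ligand or chain on the x axis. Diamonds pass the adjusted p and the fold threshold of 0.58 (dotted lines), squares pass the adjusted p only and circles pass neither. Diamonds above the upper line sit in the collagen-binding, leukocyte, other-ligand and laminin alpha groups, and the laminin-binding group holds none.

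Sequences directly upstream of the transcription start are shown for 5 genes to give the genomic context of the changes described in the next paragraphs. Itgam and Itga4 are alpha chains of leukocyte receptors called higher, Itgb1 had the highest level per length of all members, and Lama2 and Lama5 are laminin alpha chains whose transcripts moved in opposite directions. Each run is the 250 bases before the RefSeq start, taken from RefSeq's promoter table on build GRCm38.p6, on the coding strand and 5′ to 3′, and none of its bases lies in an annotated exon. Capitals mark the letters GAGGAA or their reverse complement TTCCTC, the core of the site bound by PU.1, a transcription factor of myeloid cells.
Itgam (chr7:128062390-128062639, plus strand): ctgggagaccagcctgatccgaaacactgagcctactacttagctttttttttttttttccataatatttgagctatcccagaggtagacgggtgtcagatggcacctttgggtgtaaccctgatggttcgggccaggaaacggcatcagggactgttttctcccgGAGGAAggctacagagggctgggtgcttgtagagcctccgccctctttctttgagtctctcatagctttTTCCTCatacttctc
Itga4 (chr2:79255176-79255425, plus strand): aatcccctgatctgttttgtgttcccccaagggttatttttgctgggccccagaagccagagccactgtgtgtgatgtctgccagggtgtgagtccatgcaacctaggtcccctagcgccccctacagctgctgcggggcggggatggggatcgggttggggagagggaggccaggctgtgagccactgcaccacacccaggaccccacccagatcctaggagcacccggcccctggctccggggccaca
Itgb1 (chr8:128685404-128685653, plus strand): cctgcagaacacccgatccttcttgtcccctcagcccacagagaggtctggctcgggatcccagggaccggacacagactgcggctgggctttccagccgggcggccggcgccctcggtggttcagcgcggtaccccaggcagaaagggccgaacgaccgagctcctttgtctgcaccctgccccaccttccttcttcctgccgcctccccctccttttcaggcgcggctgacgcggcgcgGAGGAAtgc
Lama2 (chr10:27616943-27617192, minus strand): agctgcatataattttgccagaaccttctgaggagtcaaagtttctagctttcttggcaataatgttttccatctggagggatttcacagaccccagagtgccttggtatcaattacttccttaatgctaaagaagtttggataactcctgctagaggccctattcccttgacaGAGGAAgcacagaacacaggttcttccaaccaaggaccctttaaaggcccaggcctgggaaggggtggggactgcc
Lama5 (chr2:180225860-180226109, minus strand): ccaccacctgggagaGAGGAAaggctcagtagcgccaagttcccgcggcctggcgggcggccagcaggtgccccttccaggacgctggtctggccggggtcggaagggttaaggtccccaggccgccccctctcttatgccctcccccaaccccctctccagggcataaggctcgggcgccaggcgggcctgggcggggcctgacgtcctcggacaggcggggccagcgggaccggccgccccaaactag

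The letters occurred in Itgam at 84 and 15 bases before the start, in Itgb1 at 9, in Lama2 at 76 and in Lama5 at 235, and not in this window of Itga4. They are common: 23.3% of the 32851 promoter windows in the table held them on either strand. Of the 27 windows of member genes 14 did, and that of Itgax did not. These windows do not cover every member: Itgb2, Itgal, Itga7 and Lamc1, among others, have none. Itga3, Itgb6 and Lamb3 have windows at different starts. The GC box GGGCGG was in 32.7% of all windows and 9 of those 27, the TATA box TATAAA in 12.4% and 0, and the TEAD core GGAATG in 12.6% and 3, where it overlaps the PU.1 letters in Itgb1. A match is a description of letters, since no binding was measured here. The window shown for Lama2 lies within the annotated span of that gene, which has a start further upstream.

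Transcripts of the laminin receptor of muscle fibres were higher, but by less than the fold threshold. Itga7 was counted at 92.5, 107, 105 and 102 normalized CPM in control mice 1 to 4 and at 165, 139, 144 and 147 in Dnm2 +/K562E mice 1 to 4 (log2 fold change 0.55 ± 0.072, edgeR adjusted p = 1.42e-04). Itgb1, the beta chain shared by many alpha chains, stood at 325, 336, 360.0 and 353 in controls and at 527, 471, 468 and 522 in Dnm2 +/K562E mice (0.53 ± 0.065, edgeR adjusted p = 8.44e-05). For both genes the groups did not overlap. Itga7 and Itgb1 rose by 1.46-fold and 1.45-fold, and the log2 ratio of Itga7 to Itgb1 differed by 0.016 between genotypes (exact two-sided permutation p = 0.8286), with per-mouse values of -1.82 to -1.65 in controls and -1.83 to -1.67 in Dnm2 +/K562E mice. Itgb1 had the highest level per length of all 38 genes in controls, at 84.2 ± 3.84 CPM per kilobase of exon (mean ± SD, n = 4), and Itga7 the fifth highest, at 12.6 ± 0.810. In bulk RNA, fewer cells of a type and less RNA per cell cannot be told apart. In the same libraries all 6 muscle fibre markers were lower, with log2 fold changes from -0.42 (Ttn) to -1.02 (Ckm). The 3 satellite cell markers Pax7, Myf5 and Calcr summed to 10.7 to 15.1 normalized CPM in controls and 1.78 to 3.65 in Dnm2 +/K562E mice. Whether these shifts contributed to the integrin values was not tested.

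Itga6, the other abundant laminin-binding alpha chain, did not pass the test with all 8 mice. This chain, which pairs with Itgb1 or with Itgb4 and is prominent in endothelium and peripheral nerve, stood at 71.4, 68.2, 76.4 and 69.4 normalized CPM in controls and at 63.4, 49.8, 61.4 and 76.1 in Dnm2 +/K562E mice. These groups overlapped (log2 fold change -0.19 ± 0.11, edgeR adjusted p = 0.185), and the sign of the difference turned to 0.020 under library size alone. Without Dnm2 +/K562E mouse 4 it was -0.29 with an edgeR adjusted p of 0.0281, and without mouse 2 -0.092 with 0.433. The ratio of Itga6 to Itga7 within a mouse, which does not depend on the scaling between libraries, was below the controls in all 4 Dnm2 +/K562E mice and fell by 0.75 on the log2 scale (exact two-sided permutation p = 0.0286, the smallest that 4 against 4 mice can give, and 0.0357 after adjustment over the 15 ratios computed). Per length, Itga7 made up 57.0% ± 1.56 of the summed Itga3, Itga6 and Itga7 transcripts in controls and 68.1% ± 2.70 in Dnm2 +/K562E mice (mean ± SD, n = 4), and Itga6 35.9% ± 2.02 and 25.6% ± 3.15. Itga3 stayed between 8.31 and 10.4 normalized CPM in all 8 mice (0.11 ± 0.10, edgeR adjusted p = 0.395). Itgb4, the hemidesmosome beta chain that perineurial, Schwann and endothelial cells also carry, was counted at 14.8, 23.5, 18.5 and 17.3 in controls and 13.7, 12.8, 15.2 and 14.8 in Dnm2 +/K562E mice (-0.39 ± 0.13, edgeR adjusted p = 0.0291). Control mouse 1 lay within the Dnm2 +/K562E range for Itgb4, and the adjusted p went over 0.05 without Dnm2 +/K562E mouse 1 (0.0684) or 2 (0.0773) or without control mouse 2 (0.0766) or 3 (0.0574), and under library size alone (0.245). In this group of 5 laminin-binding chains, 0 were called in either direction, against 20.7% of all genes tested. Their median log2 fold change was 0.11.

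Collagen-binding alpha chains moved apart. Itga10, first known from cartilage, was counted at 5.78, 4.90, 4.28 and 4.18 normalized CPM in control mice 1 to 4 and at 11.0, 13.1, 12.6 and 12.9 in Dnm2 +/K562E mice 1 to 4 (log2 fold change 1.38 ± 0.12, edgeR adjusted p = 1.06e-05). The highest control lay far below the lowest Dnm2 +/K562E mouse. The exons of Itga10 overlap those of the gene model Gm42957 on the same strand over 33.5% of their length, a read there was counted for both, and Gm42957 differed by 0.33 ± 0.092. Itga11, the fibroblast receptor for fibrillar collagen, was counted at 8.88, 16.03, 12.6 and 17.8 in controls and 36.5, 26.7, 19.3 and 24.8 in Dnm2 +/K562E mice (0.96 ± 0.22, edgeR adjusted p = 0.00531). Its spread was wide, and the lowest Dnm2 +/K562E mouse exceeded the highest control by a small margin. Itga1, the collagen receptor of capillary and smooth muscle cells, went the other way, from 64.8, 63.7, 67.8 and 58.2 in controls to 47.7, 53.2, 56.7 and 51.4 in Dnm2 +/K562E mice, without overlap (-0.28 ± 0.072, edgeR adjusted p = 0.00826), although its difference shrank to -0.073 with adjusted p = 0.385 under library size alone. Itga2 was low, at 0.985 to 1.66 in controls and 1.54 to 2.44 in Dnm2 +/K562E mice, and did not pass (0.56 ± 0.24, edgeR adjusted p = 0.0840).

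The balance among collagen receptors differed with them. The log2 ratio of Itga11 to Itga1 spanned -2.87 to -1.71 in the control mice against -1.56 to -0.39 in Dnm2 +/K562E mice. The difference was 1.25 (exact two-sided permutation p = 0.0286, adjusted 0.0357). With Itga11 above and Itga1 below all controls in every Dnm2 +/K562E mouse, this ratio could not overlap. Its p therefore adds nothing to the single-gene results. Per length, the share of Itga1 among the 4 collagen-binding alpha transcripts was 47.7% ± 5.96 in controls and 26.6% ± 4.49 in Dnm2 +/K562E mice (mean ± SD, n = 4). Itga11 held 36.8% ± 8.08 and 48.3% ± 7.81, and Itga10 held 12.9% ± 2.93 and 22.6% ± 3.58. Markers of connective tissue moved with the first pair: all 5 fibroblast markers (Pdgfra, Dcn, Lum, Col1a1 and Pi16) were called higher, summing to 1205 to 1902 normalized CPM in controls and 2630 to 3367 in Dnm2 +/K562E mice, as were the 3 tendon markers Tnmd, Scx and Mkx (70.1 to 111 and 199.9 to 251). Markers of vessels moved with Itga1: the 5 endothelial markers (Pecam1, Cdh5, Kdr, Tek and Emcn) were all lower on adjusted p, summing to 862 to 900.0 in controls and 616 to 705 in Dnm2 +/K562E mice, and 4 of 5 pericyte and smooth muscle markers were lower too. The fifth, the pericyte proteoglycan Cspg4, was higher on adjusted p, at 46.8, 36.6, 33.8 and 34.1 in controls and 48.2, 62.7, 69.2 and 42.4 in Dnm2 +/K562E mice, with overlap (log2 fold change 0.56 ± 0.16, edgeR adjusted p = 0.0141). Of all genes tested, 12.9% were called higher, and 21.7% were lower on adjusted p alone. The part of these markers in the receptor values was not tested.

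The largest log2 fold change of the 35 genes was that of a leukocyte integrin. Itgax, a complement receptor chain of dendritic cells and of some macrophages, was counted at 1.04, 0.713, 0.493 and 0.971 normalized CPM in control mice 1 to 4 and at 6.65, 6.34, 3.93 and 3.97 in Dnm2 +/K562E mice 1 to 4, a rise of 6.55-fold (log2 fold change 2.71 ± 0.28, edgeR adjusted p = 2.90e-05). The groups did not overlap, and Dnm2 +/K562E mice 1 and 2 stood above mice 3 and 4. The control levels rest on 22 to 35 counts in a mouse. Itgam, the alpha chain of the complement receptor of macrophages and neutrophils, stood at 6.82, 5.82, 4.81 and 11.1 in controls and 26.0, 19.7, 14.4 and 15.1 in Dnm2 +/K562E mice (1.40 ± 0.26, edgeR adjusted p = 0.00130). Itgb2, the beta chain that both need, stood at 4.2, 3.77, 3.63 and 8.51 in controls and 20.9, 17.7, 11.7 and 11.8 in Dnm2 +/K562E mice (1.63 ± 0.29, edgeR adjusted p = 0.00102). Control mouse 4 had the highest Itgam and Itgb2 of the controls and still lay below all 4 Dnm2 +/K562E mice. Without that mouse the log2 fold changes were 1.69 for Itgam and 2.00 for Itgb2. Itga4, which pairs with Itgb1 or Itgb7 and carries leukocytes to Vcam1 and fibronectin, was counted at 6.37, 5.37, 4.86 and 7.74 in controls and 16.2, 10.1, 10.6 and 10.5 in Dnm2 +/K562E mice (0.96 ± 0.19, edgeR adjusted p = 0.00175), with Dnm2 +/K562E mouse 1 above the other 3. On chromosome 7 of GRCm38 Itgam (128062640 to 128118491), Itgax (128129547 to 128150657) and Itgad (128154376 to 128223816) lie in this order on the plus strand. Itgal spans 127296260 to 127335138 of the same chromosome and Itgb2 lies on chromosome 10 at 77530252 to 77565708. Of the 31-base words of Itgam, 68.3% also occur in another gene model, most of them in a model over its own locus and 1.12% in genes elsewhere, and Itgax shares 10.7% with Itgad.

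The remaining leukocyte chains were low. Itgal, the lymphocyte chain that binds Icam proteins, stood at 2.32, 1.13, 0.716 and 2.12 normalized CPM in controls and at 3.39, 1.67, 1.88 and 2.00 in Dnm2 +/K562E mice (log2 fold change 0.52 ± 0.37, edgeR adjusted p = 0.283), with overlapping groups. Itgb7, the gut-homing beta chain, ranged over 1.73 to 4.18 in controls and 2.22 to 3.56 in Dnm2 +/K562E mice (0.17 ± 0.29, edgeR adjusted p = 0.670). Itgae, the alpha chain that pairs with it on intraepithelial lymphocytes, ranged over 1.52 to 1.99 in controls and 1.37 to 1.70 in Dnm2 +/K562E mice (-0.17 ± 0.19, edgeR adjusted p = 0.508, turning to 0.041 under library size alone). Itgad had 0 to 5 counts in a mouse and Itgb2l, a paralogue of Itgb2, had 0 in all 8, where the limit set by a count of 0 is 3 counts or 0.0672 to 0.0894 CPM for counting error only. Neither was tested. In all, 4 of the 7 leukocyte chains tested were called higher and 0 lower, against 12.9% and 7.85% of all genes tested. Their median log2 fold change was 0.96.

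Within the leukocyte family the mix of alpha chains differed as well. The log2 ratio of Itgax to Itgam was -3.51 to -2.71 in controls and -1.97 to -1.64 in Dnm2 +/K562E mice, a difference of 1.28. The ratio of Itgal to Itgb2 fell by 1.07, and that of Itgam to Itgb2 fell by 0.24. Each of these 3 ratios separated the genotypes without overlap (exact two-sided permutation p = 0.0286, adjusted 0.0357). Per length, Itgam made up 77.3% ± 5.05 of the alpha partners of Itgb2 in controls and 72.2% ± 0.941 in Dnm2 +/K562E mice, Itgax 9.31% ± 1.65 and 21.0% ± 1.98, and Itgal 12.7% ± 3.87 and 6.61% ± 1.34 (mean ± SD, n = 4). Macrophage markers moved with these chains. All 7 (Cd68, Adgre1, Csf1r, Mrc1, C1qa, C1qb and Ptprc) were called higher, against 12.9% of all genes tested, at log2 fold changes of 1.15 to 1.77. Their sum was 99.7 to 188 normalized CPM in controls and 217 to 359 in Dnm2 +/K562E mice. Relative to Ptprc, the pan-leukocyte phosphatase, Itgb2 was higher by 0.42 without overlap (exact two-sided permutation p = 0.0286, adjusted 0.0357), and relative to the lysosomal macrophage marker Cd68 it differed by -0.13 with overlap (exact two-sided permutation p = 0.686). Other blood cells left few transcripts: neutrophil markers summed to 0.824 to 2.17 in controls and 1.39 to 5.78 in Dnm2 +/K562E mice with Ly6g at 0 throughout, T cell markers to 0.0672 to 0.795 and 0.567 to 1.66, and B cell markers to 0.802 to 2.26 and 0.540 to 1.65. Of the 4 dendritic cell markers Flt3 was called higher (log2 fold change 1.45) and Zbtb46 was lower on adjusted p only (-0.51). Xcr1 (1.84, edgeR adjusted p = 0.0837) and Cd209a (0.87, edgeR adjusted p = 0.0714) did not pass. The sums of the 4 overlapped (12.5 to 21.1 and 14.1 to 19.2). Most of each sum was Zbtb46, at a mean of 15.3 in controls and 10.8 in Dnm2 +/K562E mice, so it says little about the other markers. The part of cell numbers in the integrin values was not tested.

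**Figure D2:**
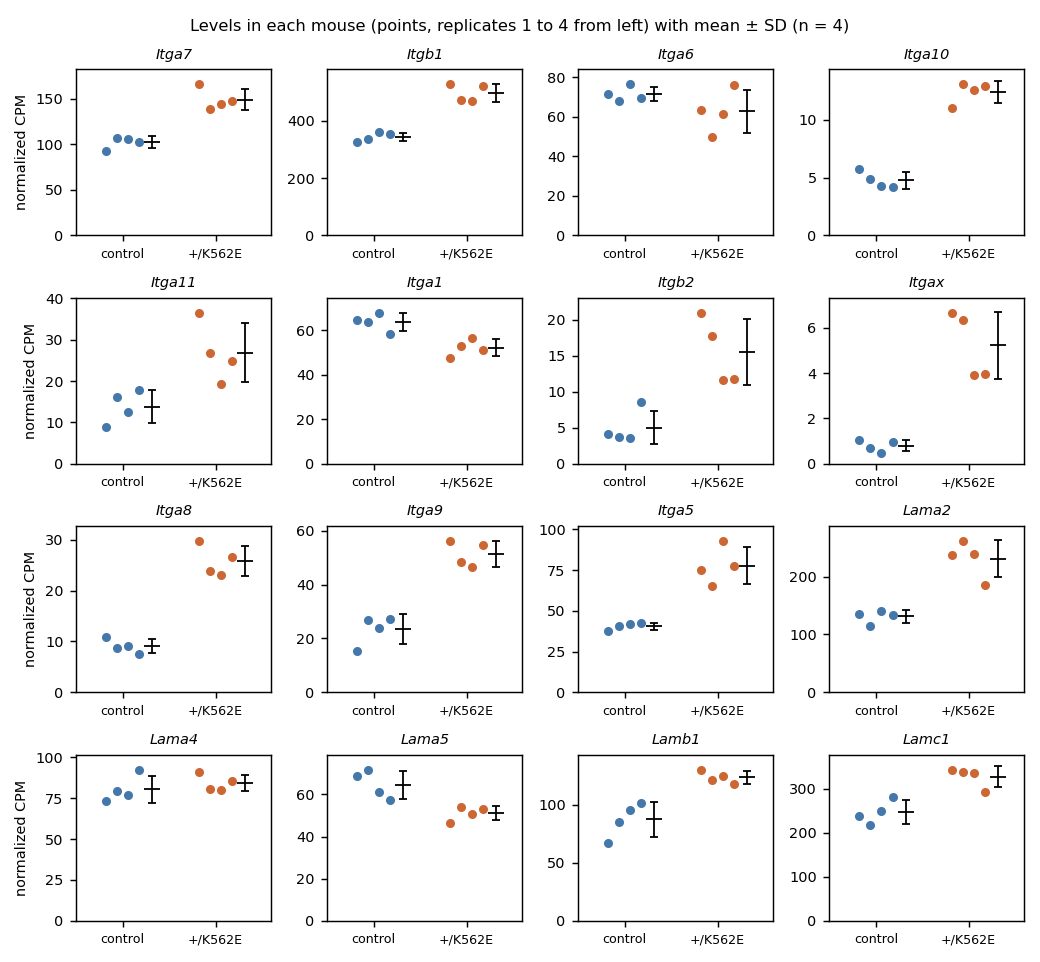
Level of 16 members in each mouse (y axes, normalized CPM from 0; points are mice 1 to 4 from left) for control and Dnm2 +/K562E soleus, with the mean and SD of 4 mice as a dash and bars. The 4 Dnm2 +/K562E mice lie above the 4 controls for Itga7, Itgb1, Itga10, Itga11, Itgb2, Itgax, Itga8, Itga9, Itga5, Lama2, Lamb1 and Lamc1, and below them for Itga1 and Lama5. The groups overlap for Itga6 and Lama4.

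Receptors for fibronectin, tenascin, nephronectin and latent TGF-beta were higher in part. Of these 9 chains, 5 (55.6%) were called higher and 0 lower, against 12.9% and 7.85% of all genes tested. On adjusted p 7 were higher, against 22.2% of all genes tested, and the median log2 fold change was 0.93. Itga8, the nephronectin receptor chain of mesenchymal and smooth muscle cells, was counted at 11.0, 8.76, 9.05 and 7.62 normalized CPM in control mice 1 to 4 and at 29.7, 23.9, 23.0 and 26.7 in Dnm2 +/K562E mice 1 to 4 (log2 fold change 1.503 ± 0.12, edgeR adjusted p = 5.08e-06). Itga9, which binds tenascin C among other ligands, stood at 15.3, 26.9, 24.0 and 27.3 in controls and 56.1, 48.3, 46.4 and 54.7 in Dnm2 +/K562E mice (1.14 ± 0.16, edgeR adjusted p = 1.93e-04). Itga5, the fibronectin receptor chain, stood at 37.6, 40.4, 41.8 and 42.6 in controls and 75.3, 65.6, 92.7 and 77.7 in Dnm2 +/K562E mice (0.94 ± 0.097, edgeR adjusted p = 2.80e-05). None of these 3 overlapped between genotypes, and the 4 controls of Itga5 lay close together. The ratio of Itga5 to Itga7, which share Itgb1, was higher in Dnm2 +/K562E mice by 0.38 without overlap (exact two-sided permutation p = 0.0286, adjusted 0.0357). Itgb8, a beta chain that activates latent TGF-beta with Itgav, was low at 2.71, 2.88, 3.56 and 2.71 in controls and reached 7.17, 6.37, 5.10 and 6.03 in Dnm2 +/K562E mice (1.05 ± 0.15, edgeR adjusted p = 2.86e-04). Itga2b, the platelet fibrinogen receptor chain, stood at 1.07, 1.37, 1.46 and 0.971 in controls and 2.55, 2.51, 2.67 and 1.59 in Dnm2 +/K562E mice (0.93 ± 0.23, edgeR adjusted p = 0.00795), and Dnm2 +/K562E mouse 4 was nearest the controls. Of 5 platelet and megakaryocyte markers Pf4, which macrophages also express, was called higher, Ppbp was under 1 CPM in all mice, and Gp9, Gp1ba and Gp6 were at or near 0, at most 0.139 CPM.

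Of Itgav and its beta chains, Itgb8 was called and the others were not with all 8 mice. Itgb5 was counted at 85.8, 93.1, 85.4 and 85.1 normalized CPM in controls and at 138, 135, 120.2 and 126 in Dnm2 +/K562E mice, without overlap and just under the fold threshold (log2 fold change 0.57 ± 0.063, edgeR adjusted p = 4.25e-05). It passed that threshold without Dnm2 +/K562E mouse 3 (0.61) or 4 (0.59) or control mouse 2 (0.60). Lamb3 at -0.59 was the call nearest to the threshold from inside. Itgav, the common alpha chain of this family, stood at 35.4 to 44.3 in controls and 44.5 to 56.2 in Dnm2 +/K562E mice (0.33 ± 0.096, edgeR adjusted p = 0.0180), a difference whose adjusted p went to 0.0568 without Dnm2 +/K562E mouse 1 and 0.0523 without mouse 4. Against Itgb1 in the same mouse, Itgav fell by 0.21 on the log2 scale, without overlap (exact two-sided permutation p = 0.0286, adjusted 0.0357). Itgb3 overlapped between genotypes, with control mouse 4 at 6.39 normalized CPM above the other controls (0.50 ± 0.19, edgeR adjusted p = 0.0578), and was called higher without that mouse (0.70, adjusted p = 0.00523) and without Dnm2 +/K562E mouse 2 (0.60, adjusted p = 0.0354). Itgb6, an epithelial beta chain in textbook accounts, stood at 39.6, 46.0, 45.4 and 40.2 in controls and 49.4, 41.2, 47.7 and 52.7 in Dnm2 +/K562E mice (0.16 ± 0.087, edgeR adjusted p = 0.168), while the epithelial markers Krt5, Krt14, Cdh1 and Epcam together reached at most 1.74 CPM in any mouse and Krt5 was at 0.

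Among the laminin alpha chains Lama2 rose, and Lama5 and Lama3 fell on adjusted p without passing the fold threshold. Lama2, the alpha chain of the muscle fibre basement membrane, was counted at 136, 115, 140.5 and 133 normalized CPM in control mice 1 to 4 and at 238, 261, 239 and 186 in Dnm2 +/K562E mice 1 to 4, a rise of 1.76-fold (log2 fold change 0.82 ± 0.10, edgeR adjusted p = 1.02e-04). The groups did not overlap, and Dnm2 +/K562E mouse 4 was the lowest of its group. On chromosome 10 of GRCm38 Lama2 spans 26980036 to 27619758 on the minus strand and Lama4 spans 38965515 to 39110188 on the plus strand. Lama4, the chain of capillary and nerve basement membranes, stood at 73.3, 79.7, 77.1 and 92.4 in controls and 90.8, 80.9, 80.3 and 85.3 in Dnm2 +/K562E mice, with overlapping groups (0.065 ± 0.079, edgeR adjusted p = 0.532). Lama5, the chain of mature vessel and synaptic basement membranes, was counted at 68.6, 71.7, 61.0 and 57.2 in controls and 46.7, 54.0, 51.0 and 53.0 in Dnm2 +/K562E mice, without overlap (-0.34 ± 0.083, edgeR adjusted p = 0.00703). Lama3, an epithelial chain, was at 7.21 to 9.09 in controls and 5.08 to 6.92 in Dnm2 +/K562E mice (-0.49 ± 0.13, edgeR adjusted p = 0.00926), also without overlap. Under library size alone Lama5 and Lama3 kept their direction at -0.12 and -0.28 but not their adjusted p (0.205 and 0.117). Lama1, the embryonic chain, had 0 to 3 counts in a mouse and was not tested.

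The composition of the alpha chain pool differed between the genotypes. Lama2 made up 38.0% ± 3.03 of alpha chain transcripts per length in controls and 53.9% ± 3.82 in Dnm2 +/K562E mice (mean ± SD, n = 4). Length here counts all annotated exon bases, which exceed the longest transcript for Lama2 and Lama4 but not for Lama5. The shares depend on that choice. Lama4 went from 31.6% ± 2.87 to 26.8% ± 2.73, Lama5 from 26.9% ± 3.13 to 17.2% ± 1.82, and Lama3 from 3.60% ± 0.362 to 2.06% ± 0.166. The log2 ratio of Lama5 to Lama2 was -1.22 to -0.68 in controls and -2.35 to -1.82 in Dnm2 +/K562E mice, a difference of -1.14. That of Lama4 to Lama2 differed by -0.74 (exact two-sided permutation p = 0.0286 for each, adjusted 0.0357). With Lama2 above and Lama5 below all controls in every Dnm2 +/K562E mouse, the ratio of Lama5 to Lama2 could not overlap. Its p therefore adds nothing to the single-gene results. The log2 ratio of Lama2 to its receptor chain Itga7 differed by 0.26 with overlap (exact two-sided permutation p = 0.2). All 5 endothelial markers and 4 of 5 pericyte and smooth muscle markers were lower on adjusted p, Cspg4 and all 5 fibroblast markers were higher in the same libraries, and their part in the alpha chain shares was not tested.

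**Figure D3:**
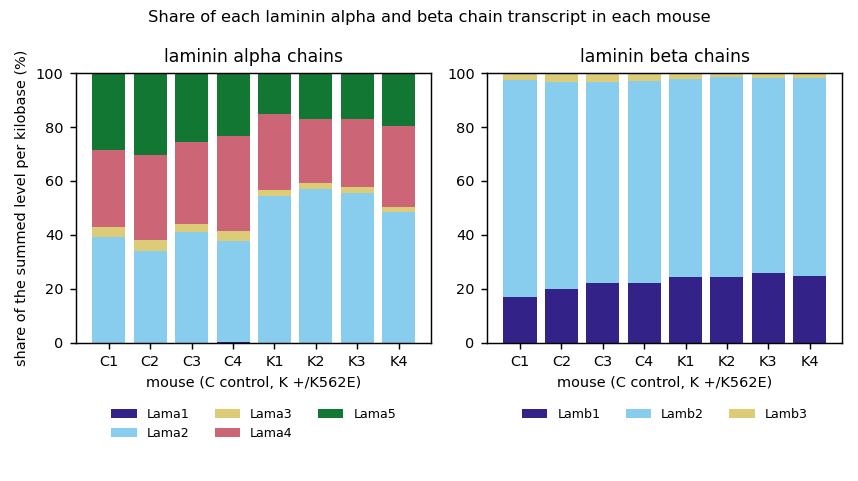
Share of each chain in the summed transcripts per kilobase of exon of its class (y axis, percent) in each of the 8 mice (x axis, C control, K Dnm2 +/K562E), for laminin alpha and beta chains. Lama2 takes 33.8% to 40.9% of alpha chains in controls and 48.3% to 56.9% in Dnm2 +/K562E mice, while Lamb2 holds most of the beta chains in all 8.

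Of the 3 beta chains, Lamb3 passed both thresholds and Lamb1 and Lamb2 did not. Lamb1 was counted at 67.0, 85.1, 95.2 and 102 normalized CPM in controls and at 129.9, 121, 125 and 118 in Dnm2 +/K562E mice (log2 fold change 0.50 ± 0.11, edgeR adjusted p = 0.00388). Lamb2, the beta chain enriched at the neuromuscular synapse, stood at 196, 199.6, 198 and 209 in controls and 239, 225, 215 and 215 in Dnm2 +/K562E mice (0.15 ± 0.057, edgeR adjusted p = 0.0469). Its adjusted p went over 0.05 in 7 of the 8 fits that left out a mouse, to between 0.0547 and 0.123 (without Dnm2 +/K562E mouse 4 it was 0.0462). The ratio of Lamb1 to Lamb2 was higher in Dnm2 +/K562E mice by 0.36 without overlap (exact two-sided permutation p = 0.0286, adjusted 0.0357), and the share of Lamb1 among beta chains per length was 20.3% ± 2.498 in controls and 24.9% ± 0.619 in Dnm2 +/K562E mice. Lamb3, which pairs with Lama3 in epithelia, was the member called lower, at 6.64, 9.71, 9.16 and 8.83 in controls and 7.09, 4.90, 5.70 and 5.08 in Dnm2 +/K562E mice (-0.59 ± 0.16, edgeR adjusted p = 0.00971). Control mouse 1 lay within the Dnm2 +/K562E range, and Lamb3 went to -0.53, -0.54, -0.54 and -0.56, inside the fold threshold, without Dnm2 +/K562E mouse 2 or 4 or control mouse 2 or 3.

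Lamc1, the gamma chain of nearly all basement membranes, stood at 237, 219, 251 and 282 normalized CPM in controls and at 343, 338, 336 and 292 in Dnm2 +/K562E mice (log2 fold change 0.41 ± 0.085, edgeR adjusted p = 0.00278), and Dnm2 +/K562E mouse 4 lay near the highest control. It rose less than Lama2, as the ratio of Lamc1 to Lama2 fell by 0.40 on the log2 scale without overlap (exact two-sided permutation p = 0.0286, adjusted 0.0357). Lamc3 stood at 4.35, 3.09, 1.70 and 1.38 in controls and 2.06, 1.86, 1.62 and 0.811 in Dnm2 +/K562E mice (-0.72 ± 0.38, edgeR adjusted p = 0.154), and the genotypes overlapped. Per length, the order in controls after Itgb1 was Lamb2 (33.0 ± 0.962 CPM per kilobase), Lamc1 (29.9 ± 3.22), Itgb5 (24.6 ± 1.08), Itga7 (12.6 ± 0.810), Lamb1 (8.80 ± 1.52), Itga5 (8.23 ± 0.440), Lama2 (8.03 ± 0.689) and Itga6 (7.91 ± 0.398). The neighbours Lamb2 and Lamc1, and those from Lamb1 to Itga6, did not differ beyond their spread. The order also depends on the length used, here all annotated exon bases of a gene. In Dnm2 +/K562E mice Itga5 was at 15.8 ± 2.27 and Lama2 at 14.1 ± 1.94, both above Lamb1 at 12.4 ± 0.529 on average.

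**Figure D4:**
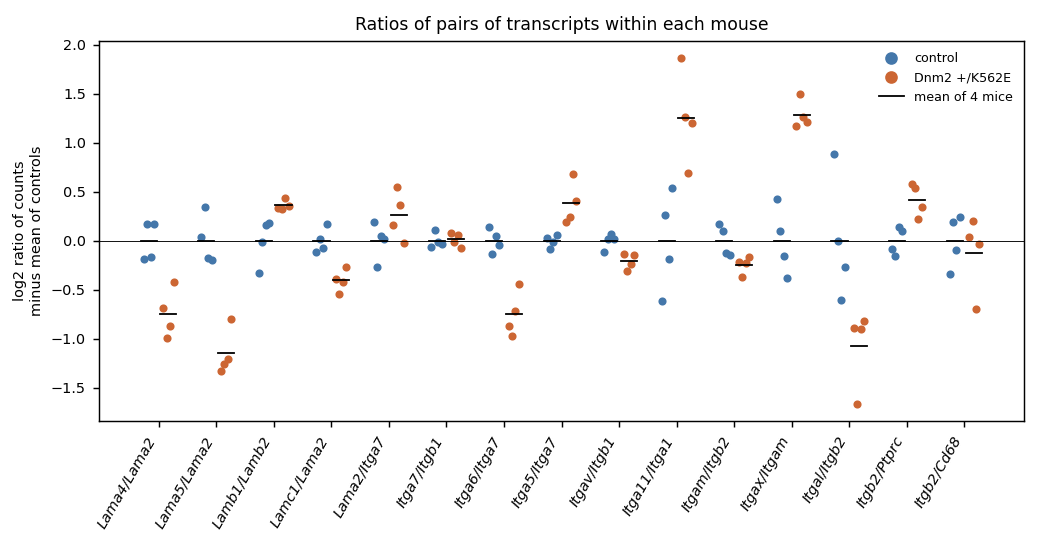
Log2 ratio of the counts of 2 transcripts within each mouse, minus the mean of the 4 controls (y axis), for the 15 ratios on the x axis; points are mice and dashes the mean of 4. The genotypes do not overlap in 12 ratios, and overlap for Lama2/Itga7, Itga7/Itgb1 and Itgb2/Cd68. Lama5/Lama2 and Itga11/Itga1 could not overlap, since their single genes separated the genotypes in opposite directions. Of single genes tested, 41.2% also show no overlap, and the ratios draw on the same counts as the single-gene values.

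Ligands of these receptors were higher in some pairs and lower in others. Of 23 integrin ligands other than laminin, 19 were tested, and 9 (47.4%) were called higher and 3 (15.8%) lower. Over all genes tested the shares were 12.9% and 7.85%. The median log2 fold change of the ligands was 0.50. Npnt, the ligand of the Itga8 receptor, which is listed with the basement membrane genes and not among the 23, was counted at 16.6, 21.3, 20.02 and 22.7 normalized CPM in controls and at 51.6, 52.9, 54.6 and 47.9 in Dnm2 +/K562E mice (log2 fold change 1.36 ± 0.094, edgeR adjusted p = 2.20e-06). Tnc, a ligand of Itga9, went from 12.2, 12.7, 14.6 and 22.5 in controls to 125, 70.4, 69.2 and 84.2 in Dnm2 +/K562E mice (2.49 ± 0.23, edgeR adjusted p = 1.42e-05). Fn1, fibronectin, went from 511, 503, 519 and 633 in controls to 1697, 1121, 1115 and 1081 in Dnm2 +/K562E mice (1.21 ± 0.14, edgeR adjusted p = 7.55e-05). In these 3 pairs receptor and ligand were both higher in all 4 Dnm2 +/K562E mice. Vtn, vitronectin, which Itgav receptors bind, was lower without overlap, at 40.1, 47.1, 50.5 and 50.3 in controls and 20.7, 23.8, 26.9 and 21.9 in Dnm2 +/K562E mice (-1.01 ± 0.10, edgeR adjusted p = 2.12e-05), beside the small rise of Itgav. Icam1, the ligand of Itgb2 receptors, was higher (1.14 ± 0.17, edgeR adjusted p = 2.99e-04), and Icam2, its endothelial relative, was lower (-0.62 ± 0.096, edgeR adjusted p = 4.09e-04). Vcam1, the ligand of Itga4, overlapped between genotypes (-0.40 ± 0.20, edgeR adjusted p = 0.130). The third ligand called lower was Spp1 (-0.69 ± 0.18, edgeR adjusted p = 0.00986), and the largest rises besides Tnc were those of Postn (2.15) and Thbs1 (1.54). Col1a1 and Col1a2 both gave 1.00, and Col3a1 1.15. Madcam1, Fga, Fgb and Fgg had 0 counts in all 8 mice.

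**Figure D5:**
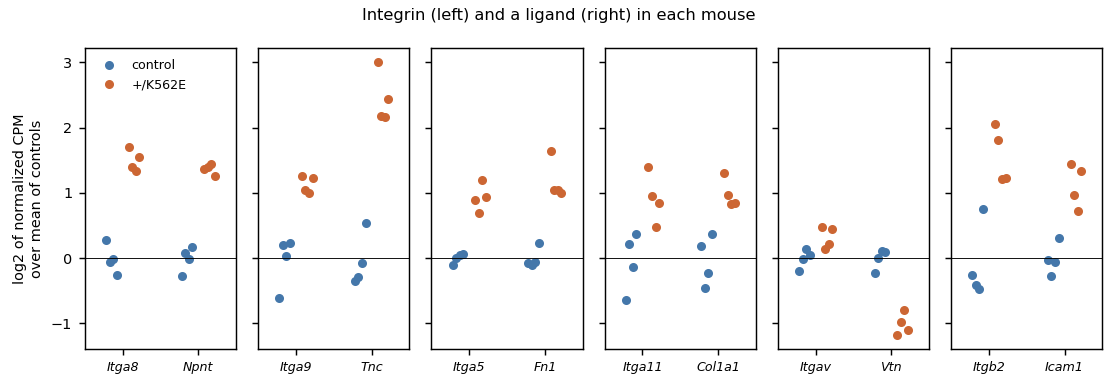
Log2 of the level in each mouse over the mean of the 4 controls (y axis) for 6 integrins, each beside a ligand (x axis); points are mice. Receptor and ligand are both above the controls in all 4 Dnm2 +/K562E mice for Itga8 and Npnt, Itga9 and Tnc, Itga5 and Fn1, Itga11 and Col1a1, and Itgb2 and Icam1, whereas Vtn is below them beside Itgav.

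Among genes of the basement membrane proteins that laminin polymers meet, Npnt, Col4a5, Col18a1 and Sparc were called higher. Of 19 such genes, all tested, these 4 (21.1%, against 12.9% of all genes tested) were called higher and 0 lower, 7 were higher and 2 lower on adjusted p, and the median log2 fold change was 0.10. Npnt had the smallest p, and the others were Col4a5 (log2 fold change 0.99 ± 0.17, edgeR adjusted p = 9.05e-04), Col18a1 (0.89 ± 0.073, edgeR adjusted p = 6.01e-06) and Sparc (0.63 ± 0.10, edgeR adjusted p = 5.30e-04). The main collagen IV chains Col4a1 and Col4a2 overlapped between genotypes (-0.058 ± 0.13 and 0.14 ± 0.081), as did perlecan, Hspg2 (0.10 ± 0.087). Nid1, the nidogen that joins laminin to collagen IV, was higher on adjusted p (0.37 ± 0.12, edgeR adjusted p = 0.0276). Agrn, the laminin-binding proteoglycan that organizes the synapse, was lower without overlap (-0.55 ± 0.063, edgeR adjusted p = 6.05e-05), and the laminin alpha 5 receptor Bcam was lower too (-0.23 ± 0.059, edgeR adjusted p = 0.00860). Dag1, dystroglycan, the second laminin receptor of muscle fibres, did not pass (-0.17 ± 0.070, edgeR adjusted p = 0.0773), beside 0.55 for Itga7.

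Inside the cell, adaptors connect integrins to actin. Of 21 adaptor and associated genes 20 were tested, 2 (10%) were called higher and 1 (5%) lower, shares near the 12.9% and 7.85% of all genes tested, 7 were higher and 4 lower on adjusted p, and the median was 0.16. Among the kindlins, Fermt3, the kindlin of blood cells, was counted at 2.11, 2.23, 1.63 and 2.74 normalized CPM in controls and at 6.73, 5.72, 4.01 and 4.30 in Dnm2 +/K562E mice (log2 fold change 1.26 ± 0.22, edgeR adjusted p = 8.50e-04). Fermt2, the kindlin of muscle and connective tissue, overlapped (-0.11 ± 0.056, edgeR adjusted p = 0.145), and Fermt1, that of epithelia, had 0 counts. The talins moved in opposite directions on adjusted p, with Tln1, the general form, at 0.31 ± 0.069 and Tln2, the form of mature striated muscle, at -0.21 ± 0.060, both without overlap. Src, the kinase at adhesion sites, was called higher (0.99 ± 0.11, edgeR adjusted p = 6.06e-05), and Lims2, a partner of Ilk, was called lower at 79.2, 101, 107 and 96.1 in controls and 55.4, 56.9, 55.3 and 66.7 in Dnm2 +/K562E mice (-0.71 ± 0.098, edgeR adjusted p = 1.95e-04). Itgb1bp2, melusin, which binds the Itgb1 tail in striated muscle, overlapped between genotypes (-0.21 ± 0.099, edgeR adjusted p = 0.1003) while Itgb1 rose. Cd151, the tetraspanin of laminin-binding integrins, and Cd47, which associates with Itgav and Itgb3, were higher on adjusted p by 0.37 ± 0.065 and 0.56 ± 0.072.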

How the data were processed

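The authors trimmed reads with Trimmomatic 0.33, aligned them to GRCm38.p5 with STAR 2.5.1b and counted them per Ensembl gene with featureCounts, and deposited raw read counts per gene for each of 8 mice. Reads over overlapping genes entered the count of each gene. Poly A enrichment is given in the study's methods, a stranded total RNA kit in the labels, and use of strand in counting is not given in the sources used here. Members and lists were chosen with earlier results of these data known, and the named genes are the members, of which 1 is counted in totals but not reported here, with values for every mouse where called or among the top 3 levels of their group.

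Identifiers were matched to GENCODE M21 symbols (22570 of 22880), which also gave the exon lengths. Levels per length divide by all annotated exon bases of a gene, which can exceed its longest transcript. Itga1 has 18599 such bases against 10967, Lama2 16338 against 9614 and Lama4 12068 against 6046. Itga11 has 5131 against 4969, and for Lama5 both are 11388. Shares and ranks across genes depend on this choice. Genes passing filterByExpr (14001) were tested with edgeR 4.0.16 (R 4.3.3; TMM, glmQLFit, glmQLFTest, genotype as the only term, Benjamini-Hochberg). Calls required an adjusted p below 0.05 with a log2 difference of 0.58 or more. Normalized CPM divide a count by library size times TMM factor (0.91 to 0.96 in controls, 1.04 to 1.10 in Dnm2 +/K562E mice). An error after ± is the SE of a log2 fold change (n = 4 per genotype) unless named as SD. Log2 ratios of counts, without a pseudocount, were compared by exact permutation tests, and a pseudocount of 0.5 was an alternative setting. Scripts were tested on simulated data. Replicates of a group differed by more than sampling noise (chi-square per degree of freedom 13 to 57.8), and intervals set by depth cover counting error only.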

Additional observations from a re-analysis of the deposited data

Results flagged for a closer look

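In 8 of the 102 sets of 4 mice checked, 1 mouse stood apart from the other 3 by Dixon's 95% criterion, where chance gives about 1 set in 20. Control mouse 4 was high for Itgb2, at 8.51 normalized CPM against 3.63 to 4.2, and for Itgb3, at 6.39 against 3.75 to 4.03. Its sum of macrophage markers, 188, was also the highest of the controls. Dnm2 +/K562E mouse 1 was high for Itga4, at 16.2 normalized CPM against 10.1 to 10.6. Dnm2 +/K562E mouse 4 was low for Itga2b, at 1.59 against 2.51 to 2.67, and for Lamc1, at 292 against 336 to 343. Control mouse 2 was high for Itgb5, at 93.1 against 85.1 to 85.8, and control mouse 3 was low for Dnm2, at 59.2 against 68.5 to 68.8. The log2 ratio of Itgal to Itgb2 was low in Dnm2 +/K562E mouse 2, at -3.40 against -2.63 to -2.56. Itga4, Itgb2, Itga2b, Itgb5 and Lamc1 kept an edgeR adjusted p under 0.05 when any 1 mouse was left out.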

How the results depend on the processing

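The 12 genes called higher were called under every alternative tried: DESeq2 1.42.0, the edgeR exact test, median-ratio factors, library size alone, another filter or none, mitochondrially encoded genes left out, either replicate block, and each mouse left out (12 to 14 called, the added ones being Itgb5 in 3 of these fits, Itgb3 in 2 and Itga7 in 1). With at least 10 counts in every mouse Itgb5 was added too (0.58). Of 306 member values under settings other than leaving out a mouse, 283 kept their direction and side of the adjusted p threshold, as did 256 of 272 with a mouse left out. Library size alone raised the median of all genes to 0.22, and gave 2865 genes higher and 564 lower, 19 members higher (adding Itga2, Itga7, Itgb1, Itgb3, Itgb5, Lamb1 and Lamc1) and 0 lower, 1 partner gene and 5 markers lower, and medians of 0.97 for collagen-binding and 0.33 for laminin-binding integrins and 0.075 and 0.37 for laminin alpha and beta chains. Under it Itgae (0.041) and Itga6 (0.020) changed sign. Without a fold threshold 3103 genes were higher and 3036 lower, with 19 and 5 members, 25 and 10 partner genes, and 19 markers lower. Without a filter on low counts, Lama1 entered and the alpha chain median was -0.34. Leaving out a mouse gave 0 to 1 members lower (Lama3 in place of Lamb3 without Dnm2 +/K562E mouse 2) and a collagen-binding median of 0.60 to 0.86. The cause of these shifts was not tested.

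Deviations of same-numbered mice had r of -0.213 to 0.00949 by title and -0.167 to 0.178 by description. In most experiments the study used age-matched or littermate controls. These r cannot show whether same-numbered mice were related or processed together. The correlation was below 0 in 3 of 4 pairs by either numbering, so not every mouse correlated best with its own number. With the number as a replicate block, 12 members were higher and 1 lower by either numbering, and 1637 genes higher and 1036 lower by title, 1739 and 1083 by description. Under the block by title the adjusted p was 0.0628 for Itgb4, 0.0502 for Itgav and 0.112 for Lamb2. The difference in Lamb2 was also over 0.05 with the edgeR exact test (0.0975), and Itgb3 passed with DESeq2 (0.0344). Ratios with a mouse left out were not tested. Members under a few CPM in controls (Itgax, Itga2, Itgae, Itgal, Itgb7, Itgb8, Itga2b, Lamc3) rest on few counts.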
